A study of Mus musculus with 2 samples.

Results

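Toll-like receptors and NOD-like receptors are the sensors with which macrophages and microglia recognise microbial products, and they were examined here, together with the adaptors and kinases that carry their signal, in the mouse microglial cell line BV2 cultured in DMEM/F12 or in DMEM. The genes were taken from a list of 44 gene symbols of these pathways. Of them 39 were measured, among 19938 genes in all on the arrays. Tlr5, Tlr11, Irak4, Chuk and Ripk2 were not analysed here, because the annotation used paired none of them with a transcript cluster of a single gene, and Tmem173 was measured under its newer symbol Sting1.

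BV2 is an immortalized line, so both cultures are of 1 line of microglial origin rather than of primary microglia. According to the methods, the cells were plated in DMEM/F12 with serum and the next day received fresh DMEM/F12, a nutrient-rich medium, or DMEM, a standard medium, for 1 day. Both cultures had thus started in DMEM/F12, and the labels name no treatment besides the medium. Total RNA from a single culture in each medium went on its own Affymetrix Mouse Gene 1.0 ST array, read out as log2 expression values. Since no medium was replicated, no p-value was calculated, each difference compares these 2 arrays only, and anything else in which the cultures differed cannot be told apart from the medium.

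Toll-like receptors are membrane proteins with a leucine-rich ligand-binding part and a cytosolic TIR domain. Some bind lipids and proteins, such as the bacterial lipopeptides sensed by TLR2 paired with TLR1 or TLR6 and the lipopolysaccharide sensed by TLR4, while others sense nucleic acids in endosomes. Their TIR domains recruit the adaptors MyD88 or TRIF, and IRAK kinases, TRAF6 and the kinase TAK1 then lead to the IKK complex, which frees the transcription factor NF-κB. NOD proteins sense fragments of bacterial cell wall in the cytosol, and inflammasome receptors such as NLRP3 activate caspases. Microglia are known to carry many of these receptors.

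The 4 genes of the list with the largest differences between the arrays were receptors, Nod1, Tlr2 and Tlr13 higher in DMEM/F12 and Tlr6 lower. In DMEM/F12, Nod1 was 1.85-fold, Tlr2 1.66-fold and Tlr13 1.56-fold higher than in DMEM. Among the Toll-like receptors, Tlr6 (1.47-fold), Tlr9 (1.43-fold) and Tlr1 (1.32-fold) were lower in DMEM/F12. Genes other than receptors also differed more than Tlr1, with Ikbke (1.43-fold) and Irak1 (1.4-fold) higher and Tmem173 (1.36-fold) lower in DMEM/F12. In RNA of whole cultures, fewer cells of a type and less RNA per cell cannot be told apart. The sequence upstream of genes that differed in opposite directions can be set side by side. For this, the promoters of the 3 genes with the largest positive differences and the 2 with the largest negative ones are shown. They are the 250 bases before the start farthest upstream in RefSeq (build GRCm38.p6), with matches to a κB-like motif in capitals (3 G, any 5 bases, then 2 C, searched on both strands). Tlr2 lies at chr3:83841609-83841858 (minus strand), Nod1 at chr6:54972613-54972862 (minus strand), Tlr13 at chrX:106143025-106143274 (plus strand), Tlr6 at chr5:64960049-64960298 (minus strand) and Tlr9 at chr9:106222348-106222597 (plus strand).
Tlr2: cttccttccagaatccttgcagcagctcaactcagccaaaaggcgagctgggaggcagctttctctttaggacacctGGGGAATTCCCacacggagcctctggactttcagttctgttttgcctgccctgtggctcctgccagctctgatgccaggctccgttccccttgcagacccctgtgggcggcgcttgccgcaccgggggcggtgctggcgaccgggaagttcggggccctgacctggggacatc
Nod1: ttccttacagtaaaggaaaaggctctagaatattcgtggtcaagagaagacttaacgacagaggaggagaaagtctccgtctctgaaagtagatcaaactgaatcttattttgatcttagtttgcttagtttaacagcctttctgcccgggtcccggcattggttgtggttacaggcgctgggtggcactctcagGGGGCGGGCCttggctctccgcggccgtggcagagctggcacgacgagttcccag
Tlr13: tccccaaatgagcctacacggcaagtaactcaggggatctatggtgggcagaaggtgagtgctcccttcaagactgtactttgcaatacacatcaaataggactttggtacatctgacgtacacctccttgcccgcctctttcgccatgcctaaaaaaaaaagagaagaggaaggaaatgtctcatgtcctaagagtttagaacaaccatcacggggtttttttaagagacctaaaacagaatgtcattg
Tlr6: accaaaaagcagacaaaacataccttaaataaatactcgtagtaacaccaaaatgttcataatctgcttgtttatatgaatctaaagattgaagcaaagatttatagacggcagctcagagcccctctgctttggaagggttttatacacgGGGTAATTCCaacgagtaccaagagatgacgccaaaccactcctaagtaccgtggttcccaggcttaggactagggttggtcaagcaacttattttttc
Tlr9: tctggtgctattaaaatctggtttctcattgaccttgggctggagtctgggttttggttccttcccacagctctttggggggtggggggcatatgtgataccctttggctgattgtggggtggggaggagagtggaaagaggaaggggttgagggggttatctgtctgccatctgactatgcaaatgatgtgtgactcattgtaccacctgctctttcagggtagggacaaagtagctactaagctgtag

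The capitals in Tlr2 hold 2 overlapping matches, and those in Nod1 and Tlr6 hold 1 match each. The windows of Tlr13 and Tlr9 hold none, so a match was found in 2 of the 3 genes higher in DMEM/F12 and in 1 of the 2 lower ones. The second RefSeq start of Nod1 and that of Tlr6 have no match. The motif is common in such windows. It was found at 45.8% of the 32851 starts in the RefSeq table and at 22 of 42 starts (52.4%) of 30 of the 39 measured genes. The rest of the measured genes, Tlr4 and Tlr7 among them, had no start in the second count. Starts on 1 chromosome were left out of the second count but not of the first, so the 2 shares come from unlike sets. A match describes the letters in the window and is not evidence of binding.

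**Figure D1:**
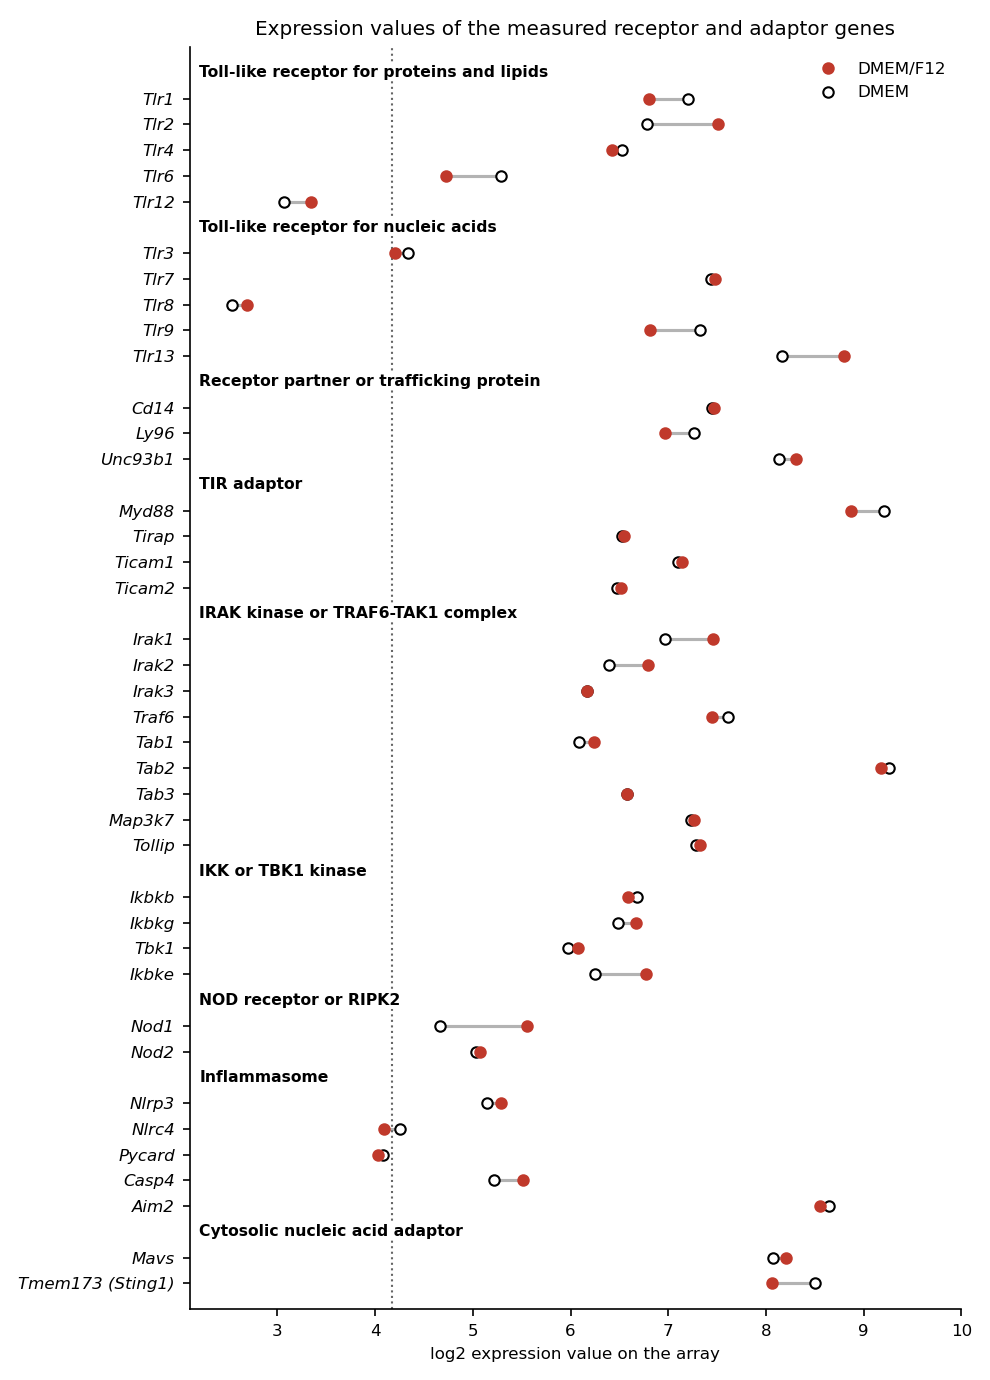
Log2 expression value (x axis) of each of the 39 measured genes (y axis, grouped by role) on the DMEM/F12 array (red) and the DMEM array (open), joined by a gray line, with background on the DMEM/F12 array as a dotted line. Among the receptors, red lies clearly to the right for Nod1, Tlr2 and Tlr13 and to the left for Tlr6, Tlr9 and Tlr1. Values of different genes cannot be compared because each has its own probes.

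As background served the 95th percentile, array by array, of the 1248 clusters for taste, vomeronasal and olfactory receptors, which gave a log2 value of 4.17 in DMEM/F12 and 4.15 in DMEM. Of the 39 genes, 36 were above background on at least 1 array, as were 13225 of all 19938 genes. Tlr12, Tlr8 and Pycard were below background on both. Each gene was measured by 1 transcript cluster, which is a group of probes summarized to 1 value. No second cluster was therefore at hand to check probes of similar receptors such as Tlr1 and Tlr6.

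Over all 39 genes, 23 were higher and 14 lower in DMEM/F12, with a median log2 difference of 0.04, against a median of 0.00 over all genes. A difference of at least 1.5-fold (0.585 on the log2 scale) was found for 3 genes higher (7.69%) and 0 genes lower. Over all genes, 0.928% were higher and 0.727% lower by that much, and over the 13225 genes above background the shares were 0.786% and 0.635%. A smaller threshold, a ratio of 5 to 4 (0.322 on the log2 scale), was passed by 6 genes higher (15.4%) and 5 genes lower (12.8%). The shares were 7.22% higher and 6.50% lower over all genes, and 6.04% and 5.99% over genes above background. All 11 of these genes were above background on both arrays. The list was drawn up with earlier results of these arrays known, so these shares describe it and test nothing. The middle of the list was no wider than that of other genes. Its median absolute difference was 0.15, as over all genes.

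**Figure D2:**
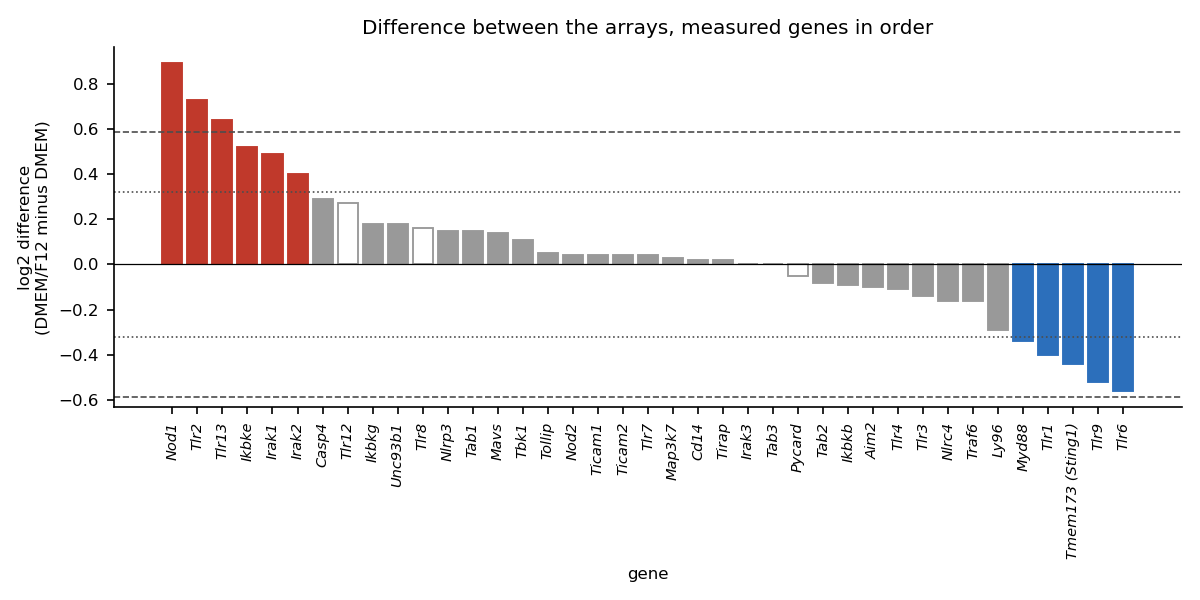
The 39 genes in order along the x axis, with their difference on the y axis as the log2 value in DMEM/F12 less that in DMEM, with dashed lines at 1.5-fold and dotted lines at a ratio of 5 to 4. The 6 red bars are higher and the 5 blue bars lower by at least that ratio, gray bars lie between, and open bars are genes not above background on either array.

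Toll-like receptors for lipids and proteins differed in opposite directions. Tlr2, the shared subunit of the lipopeptide receptors, had a log2 value of 7.51 in DMEM/F12 and 6.78 in DMEM, a difference of 0.73, and 0.34% of the genes above background were higher by as much or more. Tlr1, which pairs with TLR2 on triacylated lipopeptides, had 6.80 in DMEM/F12 and 7.20 in DMEM, a difference of -0.40. Tlr6, which pairs with TLR2 on diacylated lipopeptides, had 4.73 in DMEM/F12 and 5.29 in DMEM, a difference of -0.56, and 0.809% of the genes above background were lower by as much or more. The transcript of the shared subunit was thus higher in DMEM/F12, while those of both partners were lower. Tlr1 and Tlr6 lie next to each other on chromosome 5 with no protein-coding gene between them in RefSeq.

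The lipopolysaccharide receptor genes differed less. Tlr4 had a log2 value of 6.42 in DMEM/F12 and 6.53 in DMEM. Ly96, which encodes MD-2, the lipopolysaccharide-binding partner of TLR4, had 6.97 in DMEM/F12 and 7.26 in DMEM, a difference of -0.29. Cd14, the gene of a co-receptor that passes lipopolysaccharide to TLR4 and MD-2, had 7.47 in DMEM/F12 and 7.45 in DMEM. None of these 3 genes passed the ratio of 5 to 4, and Ly96 was the nearest to it. Tlr12, which takes part in sensing profilin of parasites in mice, was below background with 3.34 in DMEM/F12 and 3.07 in DMEM.

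Among the receptors for nucleic acids, 2 bacterial sensors differed in opposite directions. Tlr13, which senses bacterial ribosomal RNA in mice, had a log2 value of 8.80 in DMEM/F12 and 8.16 in DMEM, a difference of 0.64, and 0.582% of the genes above background were higher by as much or more. Tlr9, the receptor for unmethylated CpG DNA, had 6.81 in DMEM/F12 and 7.33 in DMEM, a difference of -0.52, and 1.1% of the genes above background were lower by as much or more. Tlr7, a receptor for single-stranded RNA, was close on both arrays, with 7.48 in DMEM/F12 and 7.44 in DMEM. Tlr8, its neighbour on the X chromosome, was below background with 2.69 in DMEM/F12 and 2.53 in DMEM. Tlr3, the receptor for double-stranded RNA, lay just above background with 4.20 in DMEM/F12 and 4.34 in DMEM. Unc93b1, whose product carries endosomal Toll-like receptors out of the endoplasmic reticulum, had 8.31 in DMEM/F12 and 8.13 in DMEM. Of the 10 measured Toll-like receptor genes, 5 differed by a ratio of 5 to 4 or more, 2 higher and 3 lower, against 7.22% higher and 6.50% lower over all genes. No test was made of this count.

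The TIR adaptors were close between the arrays except for Myd88. Myd88, the adaptor of nearly all Toll-like receptors, had a log2 value of 8.87 in DMEM/F12 and 9.21 in DMEM, a difference of -0.34 that just passed the ratio of 5 to 4. It no longer passed after quantile normalization or loess centring, with a difference of -0.32 under each. Tirap, which bridges TLR2 and TLR4 to MyD88, had 6.55 in DMEM/F12 and 6.53 in DMEM. Ticam1, which encodes TRIF, the adaptor of TLR3, had 7.14 in DMEM/F12 and 7.10 in DMEM. Ticam2, which encodes TRAM, the bridge between TLR4 and TRIF, had 6.52 in DMEM/F12 and 6.48 in DMEM. The adaptor genes other than Myd88 thus lay within 0.04 of equality.

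Downstream of MyD88, the kinase genes Irak1 and Irak2 were higher in DMEM/F12. Irak1 had a log2 value of 7.46 in DMEM/F12 and 6.97 in DMEM, a difference of 0.49 (1.4-fold), and 1.78% of the genes above background were higher by as much or more. Irak2, which sustains the later phase of the response, had 6.79 in DMEM/F12 and 6.39 in DMEM, a difference of 0.40. Irak3, which encodes the inhibitory IRAK-M, had 6.17 on both arrays. Tollip, the gene of a protein that binds IRAK1 and restrains it, had 7.33 in DMEM/F12 and 7.28 in DMEM. Irak1 and Irak2 were thus higher, while the 2 inhibitor genes differed by 0.05 or less. Irak4, the gene of another kinase of the receptor complex, was not analysed.

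The ubiquitin ligase and kinase complex that IRAK proteins engage was nearly equal between the arrays. Traf6, the ubiquitin ligase, had a log2 value of 7.45 in DMEM/F12 and 7.61 in DMEM. Map3k7, which encodes the kinase TAK1, had 7.26 in DMEM/F12 and 7.23 in DMEM. Its binding partners differed little, with 6.24 in DMEM/F12 and 6.09 in DMEM for Tab1, 9.18 in DMEM/F12 and 9.26 in DMEM for Tab2, and 6.58 on both arrays for Tab3. No gene of this step reached a ratio of 5 to 4.

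At the level of the IKK kinases, Ikbke stood apart. Ikbke encodes IKKε, an inducible kinase that phosphorylates interferon regulatory factors, and had a log2 value of 6.77 in DMEM/F12 and 6.25 in DMEM, a difference of 0.52 (1.43-fold). Of the genes above background, 1.35% were higher by as much or more. Tbk1, the gene of the related kinase, had 6.08 in DMEM/F12 and 5.97 in DMEM. The canonical complex differed less, with 6.59 in DMEM/F12 and 6.68 in DMEM for the kinase subunit gene Ikbkb, and 6.67 in DMEM/F12 and 6.49 in DMEM for Ikbkg, which encodes the scaffold NEMO.

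**Figure D3:**
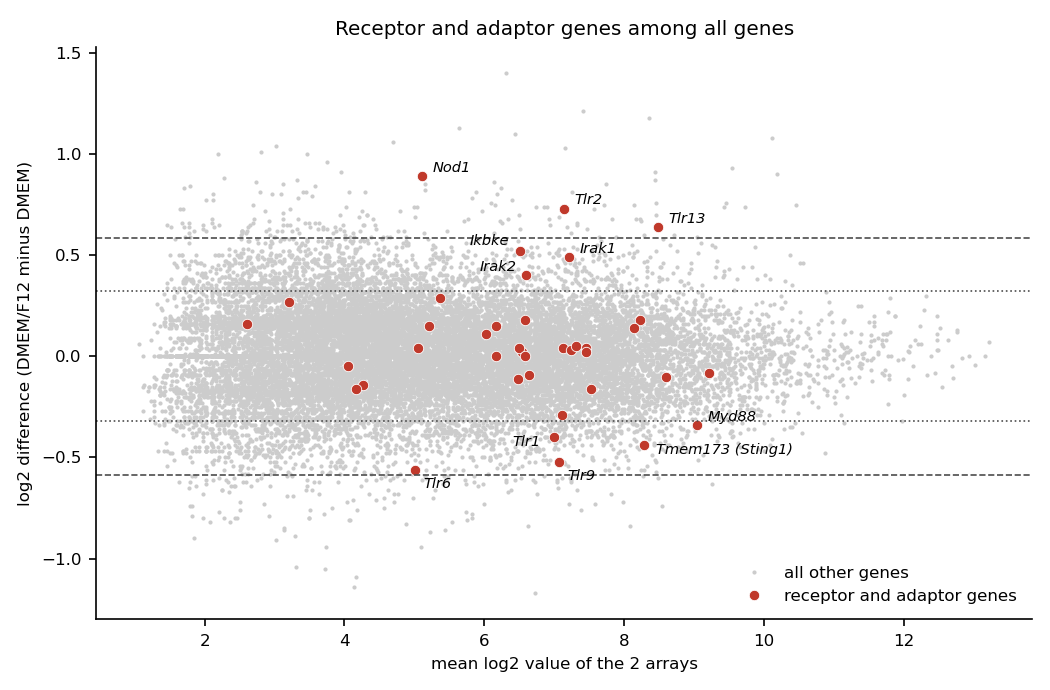
The y axis gives the log2 difference, DMEM/F12 less DMEM, and the x axis the average of both log2 values, for the receptor and adaptor genes (red) and all other genes (gray), with dashed lines at 1.5-fold and dotted lines at a ratio of 5 to 4. The 11 genes named are those past the ratio of 5 to 4, from Nod1 at 0.89 to Tlr6 at -0.56.

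The largest difference of all 39 genes was that of Nod1, the sensor of diaminopimelic acid-containing peptidoglycan fragments. Its log2 value was 5.55 in DMEM/F12 and 4.66 in DMEM, a difference of 0.89, and 0.106% of the genes above background were higher by as much or more. Nod2, the sensor of muramyl dipeptide, had 5.07 in DMEM/F12 and 5.03 in DMEM. The difference of Nod2, 0.04, was thus far smaller than that of Nod1.

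No inflammasome gene passed the ratio of 5 to 4. Casp4, the mouse gene of caspase-11, which binds cytosolic lipopolysaccharide, came closest with a log2 value of 5.51 in DMEM/F12 and 5.22 in DMEM, a difference of 0.29. Nlrp3, which responds to many forms of cell stress, had 5.29 in DMEM/F12 and 5.14 in DMEM. Aim2, the sensor of cytosolic double-stranded DNA, had 8.55 in DMEM/F12 and 8.65 in DMEM. Nlrc4, a NOD-like receptor gene of flagellin inflammasomes, was at the edge of background, with 4.09 in DMEM/F12 and 4.25 in DMEM. Pycard, which encodes the shared inflammasome adaptor ASC, was not above background on either array, with 4.03 in DMEM/F12 and 4.08 in DMEM.

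Of the adaptors of cytosolic nucleic acid sensing, Tmem173 passed the ratio of 5 to 4 and Mavs did not. Tmem173, the gene of STING, which responds to cyclic dinucleotides made after DNA sensing, had a log2 value of 8.06 in DMEM/F12 and 8.50 in DMEM, a difference of -0.44, and 2.33% of the genes above background were lower by as much or more. Mavs, the mitochondrial adaptor of RNA sensors, had 8.21 in DMEM/F12 and 8.07 in DMEM. Cgas, which encodes the DNA sensor upstream of STING and was chosen after its value was seen, had 5.77 in DMEM/F12 and 5.57 in DMEM.

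Other genes of the same pathways were counted in 9 lists drawn up with earlier results of these arrays known. Each list is read against the shares past the ratio of 5 to 4 over all genes, 7.22% higher and 6.50% lower. Of 9 genes of NF-κB subunits and inhibitors, 3 were higher and 0 lower by that ratio, with a median log2 difference of 0.20. The other 6 did not pass it. Nfkbia, the gene of IκBα, which holds NF-κB in the cytosol, had 7.67 in DMEM/F12 and 6.64 in DMEM, and Nfkb2, the gene of the p52 subunit, had 7.34 in DMEM/F12 and 6.81 in DMEM. Of 16 negative regulators of Toll-like receptor signalling, 3 were higher and 0 lower by that ratio, with a median of 0.05. Among them Tnfaip3, which encodes the ubiquitin-editing enzyme A20, had 6.45 in DMEM/F12 and 5.84 in DMEM, and Tnip1, the gene of an A20-binding protein, had 6.69 in DMEM/F12 and 6.26 in DMEM. Cyld, the remaining regulator past that ratio, differed by 0.39, and Bcl3, the remaining gene past it in the NF-κB list, by 0.36. Some other inhibitors were close on both arrays or lower, such as Nfkbib at 0.01 and Otulin at -0.31. Cyld, Bcl3, Nfkbib and Otulin were named after their values were seen.

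The lists of receptors were mixed. Of 16 other pattern receptors and their partners, 4 were higher and 3 lower by a ratio of 5 to 4 or more, with a median log2 difference of 0.11. The 4 higher genes all encode C-type lectin receptors of fungal and bacterial sugars or lipids, namely Clec4d (0.58), Clec4n (0.56), Clec7a (0.50) and Clec4e (0.48). All but Clec4d were named after their values were seen. Cd36, which encodes a scavenger receptor that assists TLR2, differed the other way, with 3.67 in DMEM/F12, below background, and 4.48 in DMEM. The other lower genes were Dhx58 (-0.42) and Hmgb1 (-0.36), both above background and both named after their values were seen. Of 21 other NOD-like receptor and inflammasome genes, only 12 were above background, and none of the 21 passed that ratio. The largest differences above background were those of Nlrc3 (0.27), an inhibitory family member, and Naip2 (0.25), a receptor of bacterial secretion system proteins.

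**Figure D4:**
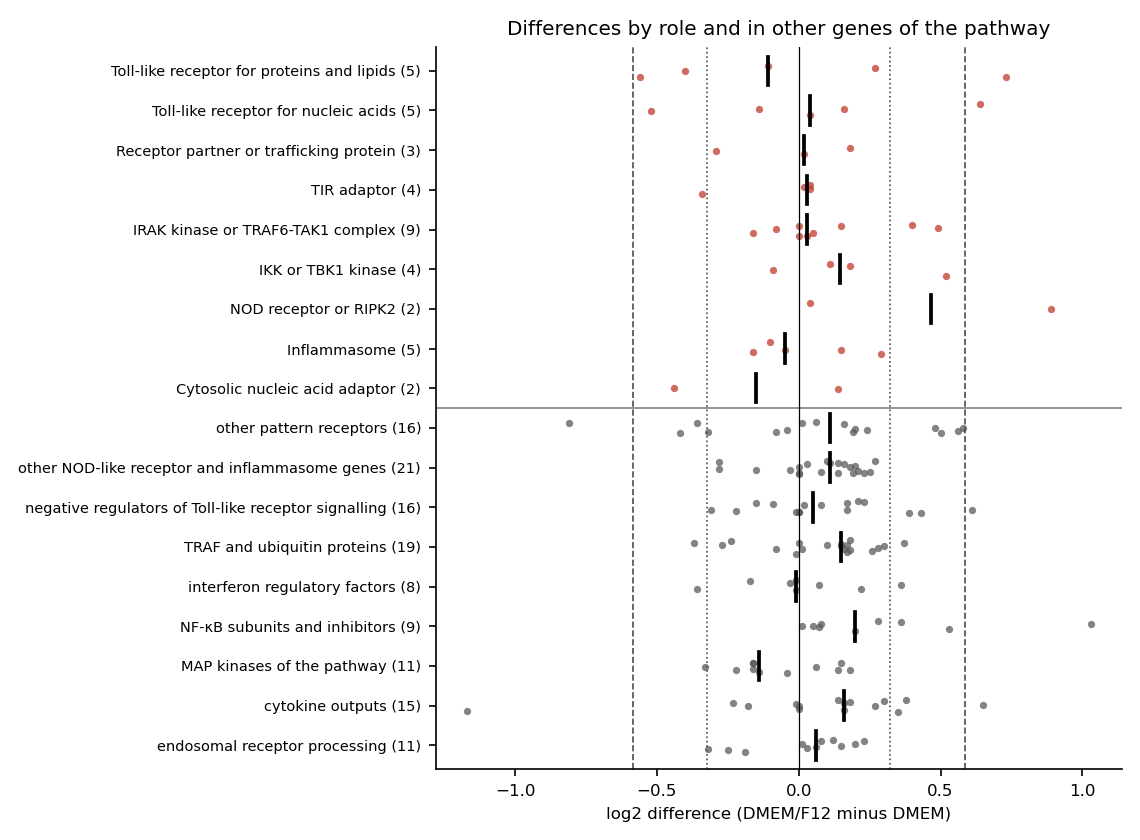
The x axis gives the log2 difference, DMEM/F12 less DMEM, for every gene by role (red) and in the 9 lists of other pathway genes (gray), with the number of genes in parentheses on the y axis, a black bar at the median, dashed lines at 1.5-fold and dotted lines at a ratio of 5 to 4. The 2 groups of Toll-like receptors spread to both sides, from -0.56 to 0.73, while the 9 genes of NF-κB subunits and inhibitors lie between 0.01 and 1.03.

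Among the outputs of these pathways, 3 of 15 cytokine and mediator genes were higher and 1 was lower by a ratio of 5 to 4 or more, against 7.22% and 6.50% of all genes, with a median log2 difference of 0.16. Il1a, which encodes interleukin-1α, had 7.26 in DMEM/F12 and 6.61 in DMEM. Ptgs2, which encodes the inducible cyclooxygenase, had 6.14 in DMEM/F12 and 7.31 in DMEM. Il6, 1 of the 3 higher genes, was below background on both arrays. Interferon regulatory factors were balanced, with 1 of 8 higher and 1 lower by that ratio and a median of -0.01, from Irf7 at 0.36, the factor that amplifies interferon production, to Irf4 at -0.36. Of 19 TRAF and ubiquitin proteins, 1 was higher by that ratio, Malt1 (0.37), a protease of NF-κB signalling, and 1 lower, Ecsit (-0.37), which binds TRAF6, with a median of 0.15. Both counts lie near the shares over all genes.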

How the data were processed

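For each medium, 1 Mouse Gene 1.0 ST array yielded the log2 values that the authors deposited for 28944 transcript clusters. The submitters' processing notes and the methods name Transcriptome Analysis Console and Affymetrix Expression Console, with version, summarization, normalization and genome build not given in the sources used here. Media were assigned by the submitters' labels, which give an incubation of over 1 day. The deposited log2 values were used without further scaling. The platform annotation paired 21789 clusters with exactly 1 symbol, for 19938 genes, and a gene with several clusters took their mean. Tmem173 was found as Sting1 through RefSeq synonyms. Differences were taken as DMEM/F12 minus DMEM, and folds as their antilog. No test was possible with 1 array per medium, and precision is limited by the number of arrays. Background was the 95th percentile of 1248 receptor clusters not known to be used by microglia. Alternatives were 3 scalings, leaving out or raising values below background, the brightest cluster, and symbols as listed. The genes, lists, thresholds and alternatives were chosen with earlier results of these data known. By rule, every listed gene is accounted for, and of each other list those named are any past 1.5-fold and, among genes above background, the 2 that differed most. The steps, tested on simulated data, ran in Python 3.11.15 with numpy 2.4.6, pandas 2.3.3, statsmodels 0.14.6 and matplotlib 3.10.9.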

Additional observations from a re-analysis of the deposited data

How the results depend on the processing

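No paired analysis was possible because only 1 array stands for either medium. The limit for a shift was 0.1 in log2 for a difference and 1.5 times for a count. No gene of the 39 shifted by more than 0.02 under median centring, quantile normalization or loess centring. Under quantile normalization and loess centring 4 genes rather than 5 were lower by a ratio of 5 to 4, since Myd88 no longer passed. Raising values to background moved 2 genes, Tlr12 and Tlr8, to 0.02 each. Taking the brightest cluster changed none of the 39 genes, each of which has 1 cluster. With symbols exactly as listed, an alternative chosen after seeing the data, Sting1 was left out and 4 genes were lower by that ratio. The 3 genes higher by 1.5-fold and the 6 higher by a ratio of 5 to 4 kept their number under each of these alternatives, and no gene reached 1.5-fold lower. Signal near background limits what can be read from Tlr3, Nlrc4, Pycard, Tlr8 and Tlr12. The lower values of Nod1 (4.66 in DMEM) and Tlr6 (4.73 in DMEM/F12) were above background but below the array medians, 4.75 in DMEM and 4.77 in DMEM/F12.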

Other observations

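Most but not all microglial and macrophage markers were above background in these cultures. Of 11 measured marker genes, 9 were above background on at least 1 array, whereas Aif1 and P2ry12 were below it on both. Over all 19938 genes, 13225 were above background by the same rule, so the call alone does not mark a cell type. Tmem119, a gene of homeostatic microglia, had a log2 value of 6.05 in DMEM/F12 and 6.71 in DMEM, and Trem2, a lipid-sensing receptor gene of microglia, had 9.63 in DMEM/F12 and 9.23 in DMEM. Csf1r, the gene of the receptor for colony stimulating factor 1 and chosen after its value was seen, differed by -0.32. Of 19 measured markers of astrocytes, neurons, oligodendrocytes, endothelial cells and fibroblasts, 10 were above background, and none of these 10 differed by a ratio of 5 to 4 or more. Their part in the differences of the receptor genes was not tested.

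Of 11 genes that mature endosomal Toll-like receptors, none passed a ratio of 5 to 4, against 7.22% higher and 6.50% lower over all genes. Their median log2 difference was 0.06. Their median absolute difference was 0.15, as over all genes. The largest differences were those of Ctsk, which encodes cathepsin K, at -0.32 and of Hsp90b1, the gene of the chaperone gp96 that folds Toll-like receptors, at -0.25. Among 11 MAP kinase genes of the pathway 7 were lower in DMEM/F12, with a median of -0.14. Over all 19938 genes, 9080 were lower. Mapk11, at 4.17 in DMEM/F12 and 4.50 in DMEM, was the 1 gene past the ratio of 5 to 4, near background on both arrays. That count lies near the 6.50% lower over all genes.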
